A study of Homo sapiens with 12 samples.

Results

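The 8 count rows described here each lie across exons of 1 gene for an endoplasmic reticulum chaperone, folding enzyme or degradation factor, on the other strand. They are 8 of the 60675 gene rows in the count tables and of the 14911 that had enough reads to be tested. The genes across from them are HSP90B1, HYOU1, CALR, PDIA6, PPIB, EDEM1, SYVN1 and DERL1. The rule names them by this position and uses no measured value, but they were chosen with earlier results of these data known and are 8 of the 34 genes of a wider list that have such a row. All 8 passed the filter on low counts. A count row holds the reads given to 1 annotated gene. The strand positions were checked in GENCODE 44 on GRCh38: each of the 8 overlaps exons of the named gene by at least 30 bases on the opposite strand and lies opposite no other coding gene. Reads from the annotated transcript of a row and reads from the gene across from it cannot be told apart in these counts, so every value below is a level at the row, called "opposite HSP90B1" and so on. That the reads come from the endoplasmic reticulum genes was not tested.

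RNA was sequenced from HSC-3, an established human oral squamous carcinoma line, in 3 groups of 4 libraries. Cells of the first group received 25 µM cyclopiazonic acid (CPA) for 3 h together with synta-66, an inhibitor of ORAI calcium channels. Cells of the second group received 25 µM CPA for 3 h, and cells of the third group were untreated. For the dose of synta-66, and for a vehicle in untreated cells, the labels give no entry. Cells given synta-66 without CPA were not analysed here. All groups are 1 cell line, and no label says that the 4 libraries come from separate cultures. The p-values therefore measure the spread between these libraries, which may be technical.

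Secreted and membrane proteins fold in the endoplasmic reticulum, where chaperones and disulfide and prolyl isomerases work at a high calcium concentration. CPA blocks the SERCA pump that refills this calcium store, and ORAI channels carry the calcium entry that follows store emptying. Misfolded protein sets off the unfolded protein response, in which the sensors ATF6, IRE1 and PERK raise chaperones and the degradation machinery known as ERAD, which pulls misfolded proteins out of the compartment for the proteasome.

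Promoters of chaperone genes are known for the ER stress response element (ERSE), bound by ATF6 with NF-Y, for the shorter ERSE-II, and for the UPRE bound by XBP1 and ATF6. These letters were searched on both strands of the 300-base RefSeq promoter windows on GRCh38.p14, each running from 250 bases before to 50 bases after a gene's start. The table held 7 of the 8 genes. The 4 genes with a match are shown because they are the chaperones and the isomerase with such an element, and the element is in capitals in each:
HSP90B1: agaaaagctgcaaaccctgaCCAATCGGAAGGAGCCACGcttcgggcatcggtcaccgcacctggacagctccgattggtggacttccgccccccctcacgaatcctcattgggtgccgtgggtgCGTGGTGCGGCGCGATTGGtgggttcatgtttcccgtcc
HYOU1: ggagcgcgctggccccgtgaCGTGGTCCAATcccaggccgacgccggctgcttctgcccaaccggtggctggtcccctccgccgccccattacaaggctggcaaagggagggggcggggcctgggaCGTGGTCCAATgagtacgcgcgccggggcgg
CALR: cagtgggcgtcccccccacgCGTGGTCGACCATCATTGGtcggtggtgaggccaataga
PDIA6: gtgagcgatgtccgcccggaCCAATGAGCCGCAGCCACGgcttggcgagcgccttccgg

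The stretches are chr12:103930196-103930359 on the plus strand for HSP90B1, chr11:119057254-119057410 on the minus strand for HYOU1, chr19:12938364-12938422 on the plus strand for CALR and chr2:10812833-10812891 on the minus strand for PDIA6. The capitals in HSP90B1, CALR and PDIA6 are ERSE, searched as CCAAT and CCACG with 9 free bases between them, which HSP90B1 holds at 2 places, once on each strand. Those in HYOU1 are ERSE-II, searched as ATTGG and CCACG with 1 free base between them, at 2 places, both read on the strand opposite to the gene. The UPRE, searched as TGACGTGG, had 1 match in HYOU1, which overlaps the upstream ERSE-II. Of all 35116 promoter windows in the table, 0.0769% held ERSE, 0.0541% ERSE-II and 0.729% UPRE. PPIB, EDEM1 and SYVN1 held none of these letters in the window. DERL1 had no entry. A match is a description of the sequence and was not tested as a binding site.

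**Figure D1:**
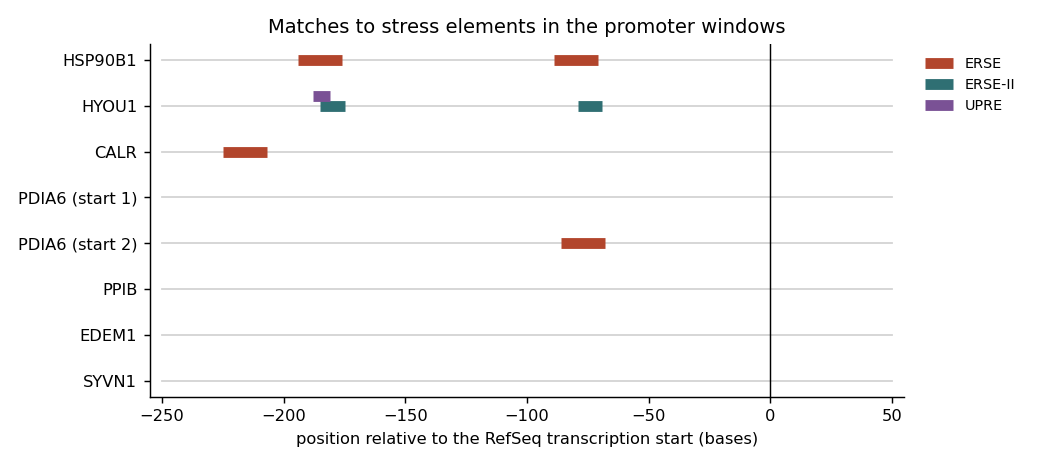
Positions of ERSE, ERSE-II and UPRE matches (coloured bars) in the RefSeq promoter windows of 7 genes, with distance from the transcription start in bases on the x axis and 1 line per window. HSP90B1 has ERSE 194 to 176 and 89 to 71 bases before the start, HYOU1 has ERSE-II 185 to 175 and 79 to 69 bases before it, CALR has 1 ERSE and PDIA6 has 1, at the second of its 2 starts.

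The libraries held 2819486 to 5458858 reads in gene rows, which were 3.58% to 9.4% of uniquely aligned reads. CPA with synta-66 libraries 1 and 4 and untreated library 3 stood apart, with 268.2 to 485.6 M non-unique alignments and 39.6% to 53.5% of gene reads at the mitochondrial ribosomal RNAs. Their part in the results was not tested beyond leaving them out, and the totals of called members and list genes below are also given without them. Summed epithelial marker rows lay at 8010 to 8730 CPM with CPA and synta-66, 7130 to 8190 CPM with CPA and 7060 to 7640 CPM in untreated cells, mostly at KRT8, whose row lies opposite KRT18. The 6 fibroblast markers summed to at most 1.04 CPM, with COL3A1, DCN, LUM and PDGFRB at 0 in all 12 libraries, the 5 immune markers to at most 7.6 CPM and the 3 endothelial markers to at most 1.29 CPM. All these sums use the rows annotated as the markers themselves, which may not be the level of the genes. Epithelial markers could be as low there. In untreated cells EPCAM averaged 1.24 CPM, and CDH1 0.982 CPM against 138 CPM at the row opposite CDH1. Low sums therefore do not show that such cells were absent. CPM is the read count of a row scaled to the size of its library, here after TMM, a factor per library that evens out the bulk of the rows. In bulk RNA a smaller share of cells and less RNA per cell cannot be told apart.

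With CPA, all 8 rows were higher than in untreated cells, and the lowest CPA library was above the highest untreated library at each of them. The share of all rows tested whose groups lay apart in this way was not counted. A row was called when edgeR's quasi-likelihood test gave an adjusted p under 0.05, with Benjamini-Hochberg adjustment over all rows tested, and the change was at least 1.5-fold. By this rule 3 of 8 rose and none fell, where 1.8% of all rows tested rose, 1.05% fell and 2.85% were called in either direction. The 3 were those opposite HSP90B1, HYOU1 and SYVN1. The median log2 fold change of the 8 was 0.48, that of all rows tested was -0.0067, and the 8 ranged from 0.31 to 2.05. All 8 had an adjusted p under 0.05 before the minimum fold was applied, where 2.64% of all rows did so in that direction. Without the 3 libraries that stood apart 3 of 8 were again called.

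With CPA and synta-66, 2 of 8 rows rose against CPA, those opposite HSP90B1 and HYOU1, and none fell, where 1.94% of all rows rose, 2.82% fell and 4.76% were called in either direction. All 8 log2 fold changes were positive, with a median of 0.44 against -0.037 for all rows. At 6 of 8 rows the groups did not overlap, and the share of all rows that did so was not counted. The adjusted p was under 0.05 for 6 of 8 before the minimum fold, where 3.45% of all rows did so in that direction. The rows opposite SYVN1 and DERL1 overlapped between the groups and had an adjusted p above 0.05. Without the 3 libraries 3 of 8 rose, and 4 rose without CPA replicate 2. Against untreated cells, 7 of 8 rose with CPA and synta-66, and none fell, where 1.66% of all rows rose, 1.24% fell and 2.9% were called in either direction. The median log2 fold change was 0.99 against -0.056 for all rows, and all 8 had an adjusted p under 0.05 before the minimum fold, where 2.45% of all rows did so in that direction. The exception was the row opposite DERL1, and 7 were also called without the 3 libraries. The 3 comparisons share libraries, so their values stand side by side here and do not support each other.

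**Figure D2:**
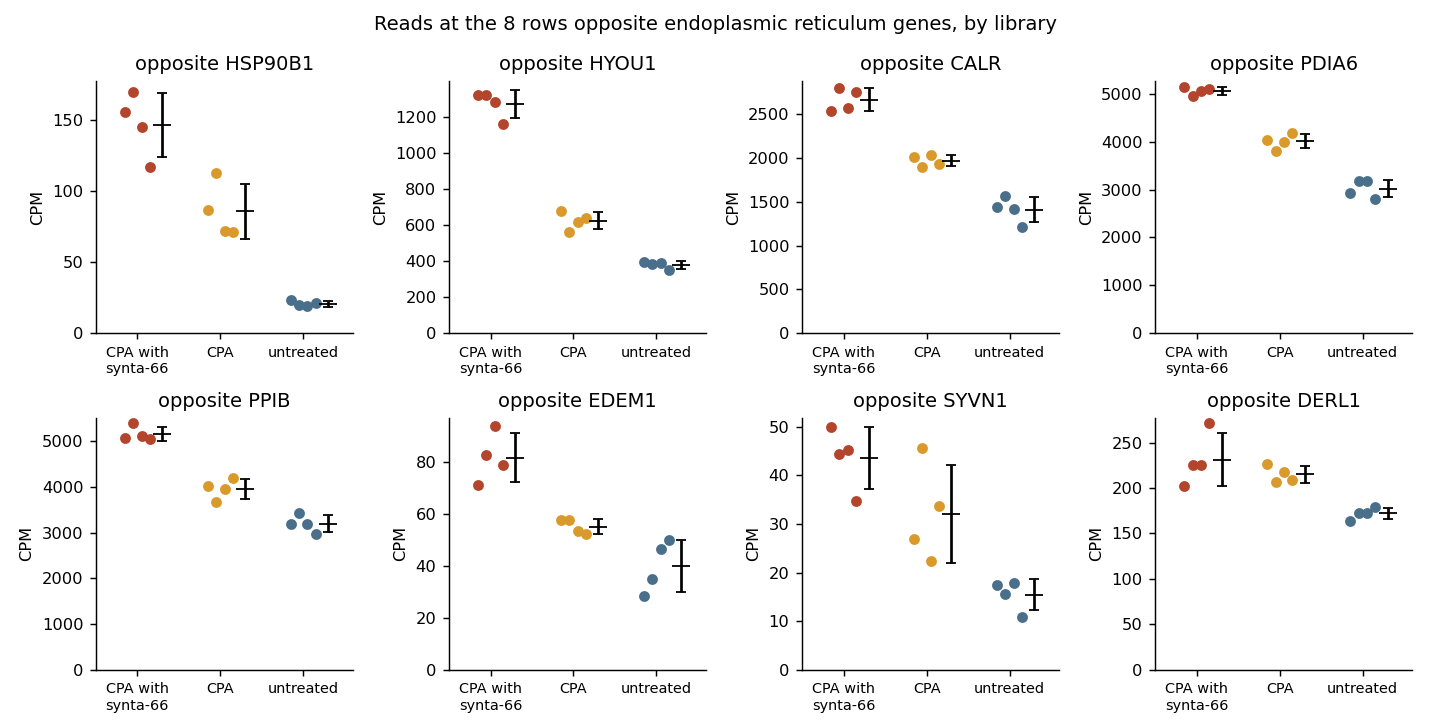
CPM at each of the 8 rows in every library, with CPA and synta-66 on the left, CPA in the middle and untreated cells on the right; points are libraries and bars are the mean ± SD of 4. Opposite HYOU1 the 4 libraries with CPA and synta-66 lie between 1157 and 1323 CPM, all above the 4 CPA libraries, which all lie above the untreated ones.

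HSP90B1 encodes the endoplasmic reticulum member of the HSP90 family, a chaperone of integrins and Toll-like receptors. The row across from it is annotated as UQCC6, an assembly factor of a mitochondrial respiratory complex, at chromosome 12, 103940763 to 103965708 on the minus strand. It overlaps HSP90B1 exons by 805 bases, 18.2% of the exon bases of the row. In the canonical HSP90B1 transcript the overlap is 282 bases, all coding sequence of exons 9, 10 and 11 of 18.

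Opposite HSP90B1 the level was 155.8, 169.8, 144.7 and 116.6 CPM in the 4 libraries with CPA and synta-66. It was 86.7, 112.3, 72.0 and 71.4 CPM with CPA, and 23.1, 19.6, 18.8 and 20.8 CPM in untreated cells. The lowest library with both compounds was above the highest CPA library, and the lowest CPA library was above the highest untreated one. The untreated values rest on 111, 98, 60 and 71 reads.

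The row rose with CPA by a log2 fold change of 2.05 ± 0.14 (SE, edgeR adjusted p = 2.4e-14), or 4.14-fold, the largest of the 8. With synta-66 it rose further against CPA, by 0.78 ± 0.13 (edgeR adjusted p = 2.6e-05). Against untreated cells it was 7.12-fold higher with both compounds, a log2 fold change of 2.83 ± 0.15 (edgeR adjusted p = 4.22e-19). A further row opposite HSP90B1, the pseudogene TTC41P with an overlap of 105 bases, averaged 3.88 CPM with both compounds, 2.6 CPM with CPA and 1.26 CPM in untreated cells. It was not called in any of the 3 comparisons (edgeR adjusted p = 0.269 to 0.736).

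HYOU1 is a large chaperone of the HSP70 superfamily that acts as a nucleotide exchange factor for HSPA5 and is induced by hypoxia. The row across from it is the long noncoding gene ENSG00000255114, at chromosome 11, 119044188 to 119045493 on the plus strand. All 667 of its exon bases lie in exon 26 of 26 of HYOU1, within the 3′ UTR. The level was 1319, 1323, 1281 and 1157 CPM with CPA and synta-66, 676.1, 561.7, 615.4 and 638.2 CPM with CPA, and 395.1, 382.6, 391.0 and 347.2 CPM in untreated cells. No library of one group reached the range of another.

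Opposite HYOU1 the rise with CPA was 0.72 ± 0.07 (SE, edgeR adjusted p = 1.65e-09), or 1.64-fold. The rise with synta-66 over CPA was 1.03 ± 0.07 (edgeR adjusted p = 4.62e-14), or 2.04-fold, the largest of the 8 in that comparison. Against untreated cells the row was 3.35-fold higher with both compounds, a log2 fold change of 1.75 ± 0.08 (edgeR adjusted p = 1.55e-21).

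CALR encodes calreticulin, the soluble lectin chaperone of glycoproteins and a store of calcium in the compartment. The noncoding gene ENSG00000267458 lies across from it at chromosome 19, 12944118 to 12944487 on the minus strand. Its 270 exon bases all fall in the 3′ UTR, in exon 9 of 9. Opposite CALR the level was 2544, 2802, 2576 and 2752 CPM with CPA and synta-66, 2018, 1901, 2038 and 1930 CPM with CPA, and 1441, 1566, 1414 and 1218 CPM in untreated cells. The 3 groups did not overlap.

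The difference opposite CALR was 0.48 ± 0.07 for CPA over untreated (SE, edgeR adjusted p = 4.16e-06) and 0.44 ± 0.07 for synta-66 over CPA (edgeR adjusted p = 1.98e-05), both under the 1.5-fold minimum. Over both, the row rose 1.89-fold against untreated cells, a log2 fold change of 0.92 ± 0.07 (edgeR adjusted p = 3.05e-13).

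PDIA6 is a protein disulfide isomerase that makes and rearranges disulfide bonds. The row across from it is annotated as ATP6V1C2, a subunit of the proton pump that acidifies vesicles, at chromosome 2, 10721100 to 10785110 on the plus strand. It overlaps exons 12 and 13 of 13 by 1033 bases, of which 163 are coding and 870 are 3′ UTR, and it covers the stop codon. The end of the PDIA6 coding sequence lies under this row and is shown because it holds the signal that returns the protein to the compartment. The stretch printed is unspliced genome at chr2:10784258-10784347 (hg38, minus strand), cut without regard to exon borders. Its first bases, before cttcccgtgg, are therefore not to be read as coding sequence. Capitals mark the codons of that signal and the stop codon:
PDIA6 coding end: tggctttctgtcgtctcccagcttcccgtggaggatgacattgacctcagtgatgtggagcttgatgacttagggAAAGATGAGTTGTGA

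Opposite PDIA6 the level was 5153, 4955, 5066 and 5099 CPM with CPA and synta-66, 4044, 3815, 4003 and 4175 CPM with CPA, and 2925, 3184, 3171 and 2808 CPM in untreated cells. The groups lay apart from each other. The difference was 0.41 ± 0.07 with CPA (SE, edgeR adjusted p = 4.89e-05) and 0.34 ± 0.07 with synta-66 over CPA (edgeR adjusted p = 0.00057), both under the minimum fold. The row rose against untreated cells with both compounds, by 0.75 ± 0.07 or 1.68-fold (edgeR adjusted p = 4.59e-11).

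PPIB encodes cyclophilin B, the prolyl isomerase that helps collagen and other secreted proteins fold. Its opposite row is annotated as SNX22, a sorting nexin, at chromosome 15, 64151715 to 64157481 on the plus strand. The overlap of 1163 bases takes in 305 coding and 209 3′ UTR bases of the canonical transcript, in exons 4 and 5 of 5, and covers the stop codon. Opposite PPIB the level was 5070, 5399, 5126 and 5065 CPM with CPA and synta-66, 4035, 3678, 3950 and 4206 CPM with CPA, and 3191, 3434, 3199 and 2977 CPM in untreated cells. Here too the 3 groups did not overlap.

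The differences opposite PPIB were 0.31 ± 0.07 with CPA (SE, edgeR adjusted p = 0.00284) and 0.38 ± 0.07 with synta-66 over CPA (edgeR adjusted p = 0.000135), below the minimum fold. The row rose 1.61-fold with both compounds against untreated cells, a log2 fold change of 0.69 ± 0.07 (edgeR adjusted p = 6.09e-10).

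EDEM1 is the lectin that picks terminally misfolded glycoproteins for degradation. The noncoding gene ENSG00000268509 lies across from its first exon, at chromosome 3, 5187172 to 5188298 on the minus strand. In the canonical transcript the overlap is 99 bases of 5′ UTR and 493 coding bases of exon 1 of 12. Opposite EDEM1 the level was 71.0, 82.7, 93.6 and 78.8 CPM with CPA and synta-66, 57.6, 57.4, 53.2 and 52.0 CPM with CPA, and 28.3, 34.8, 46.6 and 49.8 CPM in untreated cells. The untreated libraries varied most, and the highest of them was just below the lowest CPA library.

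Opposite EDEM1 the difference with CPA was 0.48 ± 0.14 (SE, edgeR adjusted p = 0.0434), under the minimum fold. Its adjusted p passed 0.05 without untreated replicate 1 (0.251) or 2 (0.165), without any single CPA library (0.0586 to 0.09), without CPA with synta-66 replicate 2 (0.052) or 4 (0.0539), and in a fit of the 2 groups alone (0.0651). With synta-66 the difference from CPA was 0.57 ± 0.14 (edgeR adjusted p = 0.00545), also just under 1.5-fold. It was 0.65 without the 3 libraries that stood apart and then past the minimum. The row rose 2.07-fold with both compounds against untreated cells, by 1.05 ± 0.14 (edgeR adjusted p = 1.06e-06).

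SYVN1 is the ubiquitin ligase at the centre of ERAD, through which misfolded proteins are marked on their way out. The row across from it is annotated as MRPL49, a protein of the mitochondrial ribosome, at chromosome 11, 65122183 to 65127371 on the plus strand. It overlaps SYVN1 exons by 356 bases, 11.6% of the exon bases of the row, and in the canonical transcript by 93 bases of 3′ UTR in exon 16 of 16. Opposite SYVN1 the level was 49.9, 44.4, 45.2 and 34.8 CPM with CPA and synta-66, 26.8, 45.6, 22.3 and 33.7 CPM with CPA, and 17.5, 15.6, 17.8 and 10.8 CPM in untreated cells. CPA library 2 lay inside the range of the group with both compounds, and all untreated libraries lay below the other groups.

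Opposite SYVN1 the rise with CPA was 1.05 ± 0.20 (SE, edgeR adjusted p = 0.000324), or 2.07-fold, on 37 to 84 reads in the untreated libraries. The further difference with synta-66 was 0.45 ± 0.19 and not called (edgeR adjusted p = 0.163). Its interval of 2 SE either side ran from 0.07 to 0.82, and without CPA replicate 2 it was 0.66 and called (edgeR adjusted p = 0.0307). Against untreated cells the row rose 2.82-fold with both compounds, by 1.49 ± 0.20 (edgeR adjusted p = 5.99e-07).

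DERL1 is a membrane protein of the channel through which ERAD substrates leave. Its opposite row is annotated as TBC1D31, a centriolar satellite protein, at chromosome 8, 123041968 to 123152153 on the plus strand, and overlaps exon 1 of 8 by 333 bases, 3.87% of the exon bases of the row. The level was 202.4, 225.7, 225.0 and 271.9 CPM with CPA and synta-66, 226.6, 206.7, 217.3 and 208.9 CPM with CPA, and 163.4, 173.0, 172.8 and 179.0 CPM in untreated cells. The groups given CPA overlapped each other and lay above the untreated libraries.

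Opposite DERL1 the difference with CPA was 0.32 ± 0.09 (SE, edgeR adjusted p = 0.028), and its adjusted p passed 0.05 without untreated replicate 1 (0.102), untreated replicate 2 (0.0686), CPA replicate 1 (0.0704) or CPA replicate 3 (0.0701). With synta-66 the difference from CPA was 0.10 ± 0.09 (edgeR adjusted p = 0.599), with an interval of 2 SE either side from -0.08 to 0.29, which does not reach the minimum fold. Against untreated cells the difference was 0.43 ± 0.09 with both compounds (edgeR adjusted p = 0.00193), under the minimum, and had an adjusted p of 0.0737 without the 3 libraries that stood apart. A further row opposite DERL1, the noncoding gene ENSG00000253607 with an overlap of 115 bases, averaged 105.3 CPM with both compounds, 96.5 CPM with CPA and 77.2 CPM in untreated cells. Its differences were 0.32 ± 0.11 with CPA, 0.12 ± 0.11 with synta-66 over CPA and 0.45 ± 0.11 with both over untreated (edgeR adjusted p = 0.0991, 0.624 and 0.0123), none of them called.

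**Figure D3:**
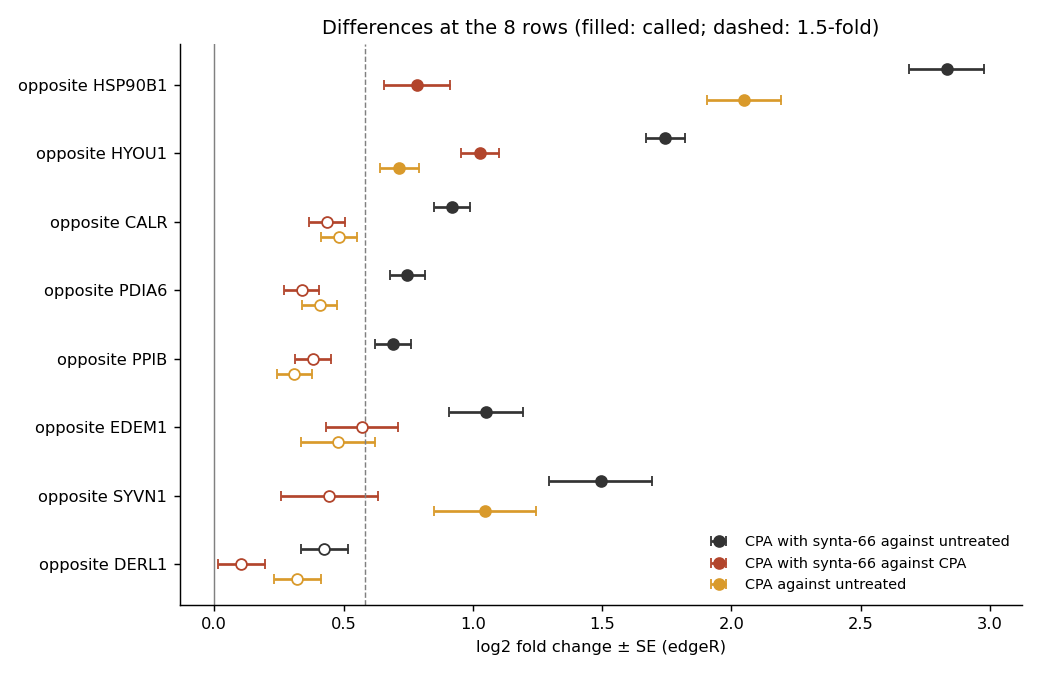
Log2 fold change ± SE from edgeR at the 8 rows in 3 comparisons, each with its own colour; filled points are called and the dashed line marks 1.5-fold. All 24 points lie right of 0, and 7 of the 8 points for CPA with synta-66 against untreated are filled.

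The levels at the 8 rows covered a wide range. Per kilobase of overlap with the gene across, the order in cells with CPA and synta-66 was CALR (9890 CPM per kb), PDIA6 (4910), PPIB (4440), HYOU1 (1900), DERL1 (695), HSP90B1 (182), EDEM1 (129) and SYVN1 (122). In untreated cells HSP90B1 was last, at 25.6 CPM per kb, below SYVN1 at 43.4 and EDEM1 at 63.2. These levels divide all reads of a row by the overlap alone, so they include any read from the rest of the row. The overlap counts exons of any annotated transcript. With the canonical transcript alone it is 282 bases for HSP90B1 in place of 805, 93 for SYVN1 in place of 356 and 514 for PPIB in place of 1163. The order therefore depends on which overlap is used.

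The size of the CPA step and of the synta-66 step differed for 1 of the 8 rows. This comparison, the log2 change of CPA with synta-66 over CPA minus that of CPA over untreated, was chosen after the data were seen. Opposite HSP90B1 it was -1.27 ± 0.23 (SE, edgeR adjusted p = 0.000134), so the CPA step was the larger, where 6.41% of all rows differed in either direction. Over 19 alternatives it ran from -1.43 to -0.95, with an adjusted p of at most 0.00624. Opposite HYOU1 the difference was 0.31 ± 0.13 (edgeR adjusted p = 0.162) and opposite SYVN1 -0.60 ± 0.33 (edgeR adjusted p = 0.343). For CALR, PDIA6, PPIB, EDEM1 and DERL1 it lay between -0.22 and 0.09 (edgeR adjusted p = 0.521 to 0.902).

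The own rows of the 8 genes, which hold reads given to the genes themselves, were mostly low. The library kit and the strand it reads are not named in the labels, and whether the strand setting of the counting matched the kit was not tested. An own row, here and in the list below, is therefore a level at that row and may not be the level of the gene. Reads at the opposite row were 2040 times the own reads for PPIB, 1070 times for PDIA6, 214 times for HYOU1, 84.5 times for EDEM1, 60.7 times for DERL1 and 54.3 times for CALR, over all 12 libraries. HSP90B1 and SYVN1 stood apart, with ratios of 1.16 and 0.509. The HSP90B1 ratio was 1.44 with CPA and synta-66, 1.5 with CPA and 0.377 in untreated cells. The own rows of HSP90B1, PDIA6, PPIB, SYVN1 and DERL1 lie opposite UQCC6, ATP6V1C2, SNX22, MRPL49 and TBC1D31 in turn, so they have the same limit.

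None of the 8 own rows was called with CPA, where 2.85% of all rows tested were called, so this count lies near the share over all rows. HSP90B1 averaged 57.6 ± 14.3 CPM with CPA and 56.5 ± 14.9 CPM in untreated cells (SD, n = 4 each), a log2 fold change of 0.03 ± 0.16 (edgeR adjusted p = 0.963), where the row across from it rose 4.14-fold. SYVN1 averaged 61.3 CPM with CPA and 58.3 CPM in untreated cells, a difference of 0.07 ± 0.13 (edgeR adjusted p = 0.891). Between own and opposite rows the difference in response was not tested.

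With CPA and synta-66, the own rows of 3 of the 8 genes rose against CPA, where 1.94% of all rows tested rose. HSP90B1 averaged 105.3 ± 25.2 CPM with both compounds and 57.6 ± 14.3 CPM with CPA (SD, n = 4 each), a log2 fold change of 0.87 ± 0.16 (edgeR adjusted p = 0.000144), although the lowest library with both compounds, at 75.5 CPM, was below the highest CPA library at 79.0 CPM. HYOU1 averaged 8.38 CPM with both compounds and 1.88 CPM with CPA (2.12 ± 0.54, edgeR adjusted p = 0.0081), and CALR 54.3 CPM and 30.4 CPM (0.84 ± 0.18, edgeR adjusted p = 0.00147), with no overlap. The other 5 were not called (edgeR adjusted p = 0.519 to 0.87), and PPIB, EDEM1, PDIA6 and DERL1 averaged at most 4.65 CPM in any group.

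**Figure D4:**
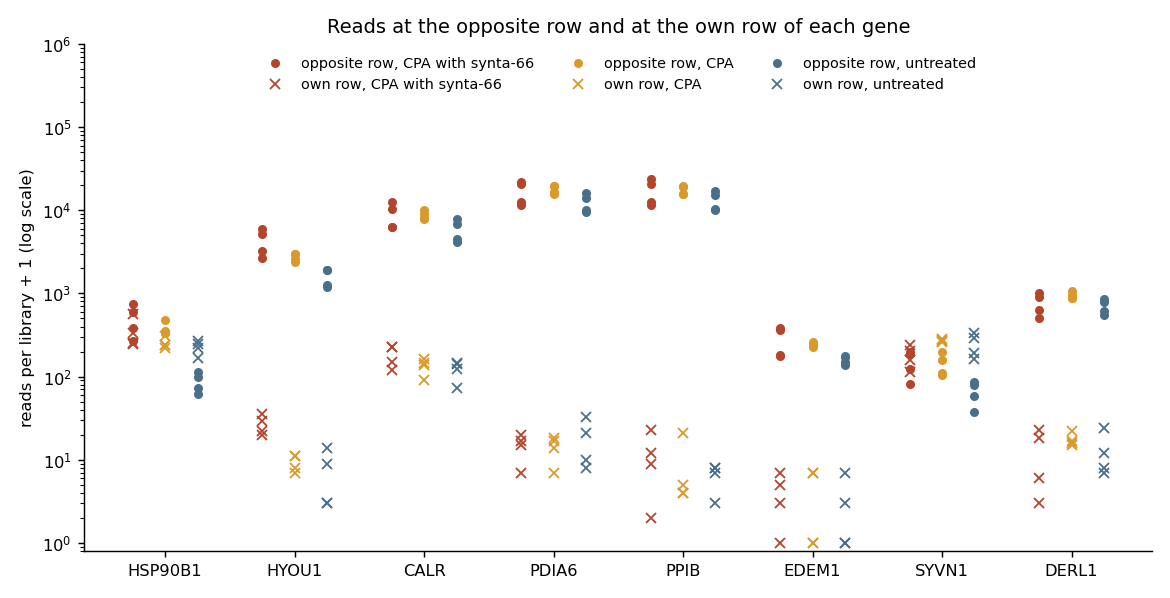
Reads per library plus 1 on a log axis at the opposite row (dots) and the own row (crosses) of each gene, with CPA and synta-66 left, CPA in the middle and untreated cells right. For 6 genes the dots lie far above the crosses, while for HSP90B1 and SYVN1 they lie in the same range.

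The 8 genes belong to a wider list of 99 endoplasmic reticulum genes: 22 chaperones and co-chaperones, 26 disulfide and prolyl isomerases, 36 ERAD genes and 15 sensors and factors of the unfolded protein response. Of these 34 had an opposite row and 32 were tested there, the 8 included. With CPA 5 of 32 rose and none fell, with a median log2 fold change of 0.28, where 1.8% of all rows rose. With synta-66 over CPA 4 rose and none fell (median 0.35), where 1.94% of all rows rose. With both compounds over untreated 11 rose and none fell (median 0.32), where 1.66% of all rows rose. Without the 3 libraries that stood apart 5, 5 and 12 were called, in the same order. Among the 24 list genes outside the 8, 2 rose with CPA, 2 with synta-66 over CPA and 4 with both over untreated, with medians of 0.13, 0.28 and 0.23. Of these 24, 16 averaged 5 CPM or more at the opposite row, and their log2 fold changes were positive for 12, 14 and 15 in the same order of comparisons. The share of positive changes among all rows of that level was not counted.

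By group, with both compounds over untreated, 3 of 8 chaperones, 5 of 10 isomerases, 2 of 12 ERAD genes and 1 of 2 sensors and factors rose at the opposite row, the 8 members included. The sensor was EIF2AK3, which encodes PERK. Opposite EIF2AK3 the level was 663.7, 721.7, 675.4 and 620.0 CPM with CPA and synta-66, 318.7, 326.9, 312.3 and 309.3 CPM with CPA, and 155.5, 181.2, 163.2 and 143.0 CPM in untreated cells, with no overlap. Its log2 fold change was 0.98 ± 0.08 with CPA (SE, edgeR adjusted p = 3.66e-12) and 1.08 ± 0.08 with synta-66 over CPA (edgeR adjusted p = 9.67e-14).

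Among the isomerases outside the 8, TXNDC11, a thioredoxin-domain protein linked to EDEM function, averaged 42.5 CPM at its opposite row with both compounds, 33.4 CPM with CPA and 20.0 CPM in untreated cells. It rose with CPA (0.75 ± 0.18, edgeR adjusted p = 0.00615) and with both compounds over untreated (1.11 ± 0.18, edgeR adjusted p = 3.16e-05). P4HB, the founding disulfide isomerase and a subunit of collagen prolyl hydroxylase, averaged 2950 CPM with both compounds, 2293 CPM with CPA and 1682 CPM in untreated cells. It rose with both compounds over untreated (0.81 ± 0.07, edgeR adjusted p = 6.45e-12) and was under the minimum fold at each single step (0.45 and 0.36). ERO1B, an oxidase that recharges disulfide isomerases, is read at RNU2-70P, a pseudogene of a spliceosomal RNA, on at most 19 reads. That row rose with synta-66 over CPA (2.97 ± 0.93, edgeR adjusted p = 0.0409) and over untreated (4.44 ± 1.07, edgeR adjusted p = 0.0076).

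**Figure D5:**
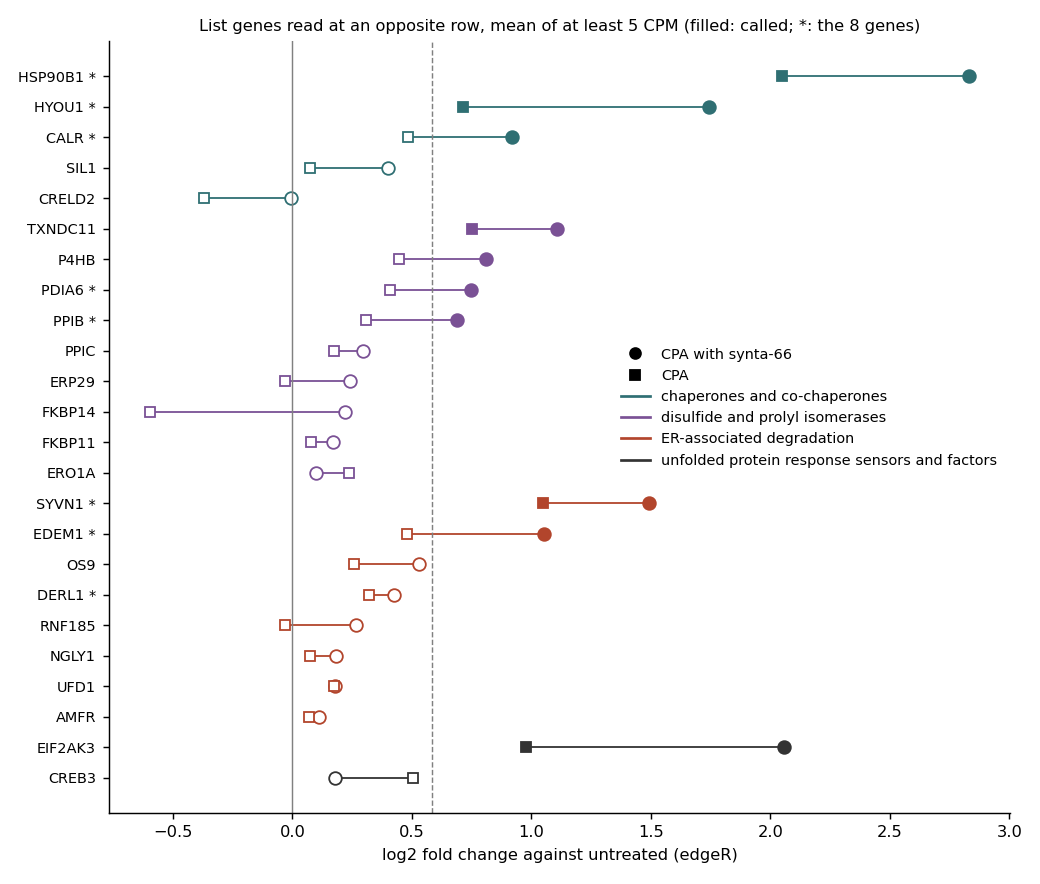
Log2 fold change against untreated at the opposite row for the 24 list genes whose opposite row averaged 5 CPM or more, circles for CPA with synta-66 and squares for CPA; filled marks are called, the dashed line is 1.5-fold, colours are the 4 gene groups and stars mark the 8 genes. With CPA and synta-66 23 of 24 lie above 0, and with CPA 20 of 24. The share above 0 among all rows of that level was not counted.

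By their own rows, 78 of the 99 list genes were tested. With CPA 2 rose and 1 fell (median log2 fold change 0.005), a count of 3 of 78, where 1.8% of all rows rose and 1.05% fell, so it lies near the share over all rows. Without the 3 libraries that stood apart 3 were called. HERPUD1, an ERAD adaptor induced early in the response, had 18, 4, 7 and 6 reads with CPA and 1, 0, 0 and 0 reads in untreated cells, and rose (4.50 ± 1.02, edgeR adjusted p = 0.00361). The co-chaperone DNAJB9 averaged 27.4 CPM with CPA and 18.0 CPM in untreated cells (0.60 ± 0.18, edgeR adjusted p = 0.0472). The own row of SIL1, a nucleotide exchange factor for HSPA5, fell to 7.98 CPM with CPA, against 17.1 CPM in untreated cells (-1.10 ± 0.29, edgeR adjusted p = 0.0144). The row opposite SIL1 did not fall, at 86.6 CPM with CPA and 82.5 CPM in untreated cells (0.07 ± 0.11, edgeR adjusted p = 0.832). Without CPA replicate 3 only 1 of the 78 was called.

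With synta-66 over CPA 9 own rows of the list rose and 2 fell, with a median of 0.37, where 1.94% of all rows rose and 2.82% fell. These 11 calls were 8 without the 3 libraries that stood apart. The luminal chaperone HSPA5 averaged 34.1 ± 8.77 CPM with both compounds and 9.84 ± 5.7 CPM with CPA (SD, n = 4 each), a log2 fold change of 1.80 ± 0.29 (edgeR adjusted p = 1.45e-05). The disulfide isomerase PDIA4 rose by 2.08 ± 0.37 and the HSPA5 co-chaperone DNAJB11 by 1.20 ± 0.27 (edgeR adjusted p = 9.12e-05 and 0.00195). DERL2, a relative of DERL1, averaged 241.4 ± 15.8 CPM with both compounds and 106.0 ± 7.47 CPM with CPA (SD, n = 4 each), and rose by 1.19 ± 0.10 (edgeR adjusted p = 1.93e-12). CRELD1 fell by 2.80 ± 0.60 on the log2 scale (edgeR adjusted p = 0.00147). Its row held only 2, 3, 2 and 3 reads with both compounds, and 27, 24, 30 and 17 reads with CPA. DERL3, another derlin, fell by 0.83 (edgeR adjusted p = 0.0276). The rows of DNAJB11, DERL2 and DERL3 lie opposite exons of TBCCD1, MIS12 and SMARCB1 in turn. Reads from those genes cannot be told apart there.

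With both compounds over untreated, 10 own rows of the list rose and 2 fell, where 1.66% of all rows rose and 1.24% fell. These 12 calls were 6 without the 3 libraries that stood apart and 7 without untreated replicate 2. Outside the 8 genes the largest rises were HERPUD1 (5.76 ± 0.98), HSPA5 (1.94 ± 0.29), SEL1L, the partner of SYVN1 (1.80 ± 0.48), and DERL2 (1.59 ± 0.10), and among the 8 the own row of HYOU1 rose by 2.37 ± 0.56. The own rows of SIL1 and UFD1, a cofactor of the VCP extraction motor, fell by 1.03 and 0.74 on the log2 scale. The rows opposite SIL1 and UFD1 did not fall, with differences of 0.40 ± 0.11 and 0.18 ± 0.08 (edgeR adjusted p = 0.0201 and 0.249), neither of them called.

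Rows with a profile most like each called member were named by the root mean square difference of log2 CPM over the 12 libraries, each profile set against its untreated mean, among 6356 rows averaging 5 CPM or more. Nearest to the row opposite CALR was ENSG00000262831, the row opposite P4HB, at a difference of 0.0815 log2 units. The rows opposite PDIA6 and PPIB were among the 4 nearest of each other, 0.0789 apart. PDIA6 was closest to TICAM2-AS1, the row opposite TICAM2, TMED7 and TMED7-TICAM2 (0.0538). PPIB was closest to TRIM14, the row opposite the sialic acid synthase NANS (0.0631).

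Opposite HYOU1 the nearest rows were ARSG, the row opposite SLC16A6 and WIPI1 (0.241), and DERL2, the row opposite MIS12 (0.244). EDEM1 had SLC25A25-AS1, the row opposite SLC25A25 (0.175), and TXNDC11-AS1, the row opposite TXNDC11 (0.204), and SYVN1 had PCGF3 (0.283). Among the 7 called members, the row opposite HSP90B1 had the most distant nearest row, ENSG00000272009, opposite ZNF165, at 0.367, and then IFNGR2, opposite TMEM50B, at 0.385. The IFNGR2 row averaged 73.2 CPM with CPA and synta-66, 36.5 CPM with CPA and 9.36 CPM in untreated cells. Low rows differ more by counting error, so distances are comparable only between rows of like level.

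Of the 87 list genes with a promoter window, 8 held ERSE (CALR, CANX, CRELD2, ERO1B, HSP90B1, HSPA5, PDIA6 and XBP1), 3 held ERSE-II (HERPUD1, HYOU1 and SDF2L1) and 6 held UPRE (DNAJC10, HYOU1, TXNDC11, TXNDC5, UBE2J1 and VCP). Of the 4 members with an element shown at the start, 2 rose with CPA, at 2.05 opposite HSP90B1 and 0.72 opposite HYOU1, each with a pair of matches. CALR and PDIA6, with 1 match each, had 0.48 and 0.41. With none of these letters in the window, SYVN1 rose by 1.05, while EDEM1 had 0.48 and PPIB 0.31. These counts describe the windows, and no relation between elements and response was tested.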

How the data were processed

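Per the labels, total RNA of HSC-3 cells was sequenced as paired-end Illumina reads, which the authors trimmed, aligned to GRCh38 with STAR 2.5.2a and counted per gene with HTSeq 0.6.1p1 and the Ensembl 84 annotation, taking the library as stranded. The labels give Trimmomatic 0.32 and the submitters' processing notes 0.36. No library kit is named in the labels. Each deposited value is a raw count of reads per gene, with no normalization by the authors. The 5 closing rows of unassigned reads, of which reads in no feature were 90.5% to 96.3% of unique alignments, entered neither library sizes nor tests.

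The tests ran in R 4.3.3 with edgeR 4.0.16 on TMM-scaled counts. Rows needed 5 reads or more in 2 of the 4 libraries of some group, as in the study's filter, which left 14911. All 12 libraries entered 1 quasi-likelihood fit on the group alone, and p-values were adjusted over these rows by Benjamini-Hochberg. A call needs adjusted p under 0.05 and at least 1.5-fold. SE is the log2 fold change divided by the root of F. The script was tested on simulated data. Overlaps come from GENCODE 44, which held 56558 of the 60675 gene IDs, and not from Ensembl 84. A gene's opposite row overlaps exons of this 1 coding gene by at least 30 bases and has the most reads.

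Named are the 8 rows and genes, then per comparison and reading up to 4 called rises and 4 falls of the list that average 1 CPM or more, and the 4 rows nearest in profile to each called member, not all of them printed. The members and lists were chosen with earlier results of these data known. Alternatives were RLE and upper-quartile scaling, TMM without mitochondrial ribosomal RNA, DESeq2 1.42.0, other filters, no minimum fold, a fit of 2 groups, other overlaps, replicate numbers as a block, each library left out, and the 3 libraries that stood apart left out. Depth limits the low rows: the fewest reads at a member were 37 and the most 23968. Counts of the 18 library pairs within groups differed by more than sampling noise.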

Additional observations from a re-analysis of the deposited data

How the results depend on the processing

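Of 504 log2 fold changes of the 8 rows under 21 alternatives, none reversed and none lost its call. For 8 of them, 7 opposite EDEM1 and 1 opposite SYVN1, a difference under the minimum fold or threshold passed it. With no minimum fold, 8 members were called with CPA and 6 with synta-66 over CPA, and 13 and 11 list genes at opposite rows. Of these 11, 1 was a fall, opposite CREB3 (-0.325 ± 0.103, edgeR adjusted p = 0.0444). Members called ranged from 3 to 4, 2 to 4 and 7 to 7 with a library left out (CPA, synta-66 over CPA, both over untreated). List calls at opposite rows ranged from 4 to 6, 3 to 6 and 11 to 11, and by own rows from 1 to 4, 8 to 12 and 7 to 13, the last with 6 when the 3 libraries that stood apart were out. The cause was not tested. With a library left out, the step difference changed sign, without a call, opposite CALR (-0.097 to 0.02), EDEM1 (-0.03 to 0.235) and PPIB (-0.005 to 0.124). Replicate numbers shared between groups did not pair the libraries: over 12 pairs of groups and numbers the correlation of deviations was -0.024 to 0.054, and 5 were best with their own number. With the replicate block 3, 2 and 7 members were called, and 5, 3 and 11 list genes at opposite rows and 3, 9 and 11 by own rows. Depth limits the own rows of PPIB, EDEM1, PDIA6 and DERL1, which averaged at most 4.65 CPM.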
